A study of Mus musculus with 12 samples.

Results

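The RNA of unstimulated plasmacytoid dendritic cells (pDCs) is described here from the 3 control libraries of a series of 12 RNA-seq libraries. The cells came from the bone marrow of BALB/c mice of 56 to 63 days of age. The 3 control cultures carry the treatment label control, and the culture text, which names the oligodeoxynucleotides, is the same for every sample. All cells were kept for 24 h in RPMI-1640 medium with fetal bovine serum, antibiotics, nonessential amino acids and β-mercaptoethanol. Libraries of cells given 0.5 µM of a CpG oligodeoxynucleotide, 3 for each of the classes CpG-A, CpG-B and CpG-C, make up the other 9 and were not compared with the controls. The control libraries were chosen by their treatment label alone. A gene counted as expressed when its deposited FPKM (fragments scaled to transcript length and to library size) was at least 1 in all 3 control libraries. This held for 6807 of the 21573 genes (31.6%), which were ranked by the mean of their 3 values.

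The labels say that the cells were sorted before RNA extraction. No gate is described, and the order of sorting and culture is not stated. Separate animals are not named for the 3 replicates, so each standard deviation (SD) measures the spread between these 3 libraries, which may be technical.

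pDCs are a dendritic cell lineage specialised in sensing nucleic acids. Their endosomal receptors TLR7 and TLR9 recognise RNA and unmethylated CpG DNA and signal through MyD88 and the interferon regulatory factor IRF7 to give large amounts of type I interferon. At rest they have a plasma cell-like appearance with a well developed endoplasmic reticulum, hold a set of inhibitory and adaptor-coupled surface receptors, and depend on the transcription factor E2-2, encoded by Tcf4.

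The 3 libraries shared most of their highest genes and differed more at low levels. The sums of all FPKM values were 917821, 869022 and 866584 in control replicates 1, 2 and 3. Known genes, those with an NCBI gene number, passed the minimum in all 3 libraries for 35.4% of 17590, and loci named only by the sequencing provider for 14.7% of 3983, against 31.6% of all genes. A further 2773 genes reached 1 FPKM in 2 libraries, 2827 in 1 library and 9166 in none. At the edge of the rule, Diexf, Khsrp and Pbld1 had a lowest value of exactly 1 FPKM and were inside it. Cd84, Cspp1 and Dusp11 had a lowest value of 0.99 FPKM and were outside.

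Control replicate 1 stood apart from replicates 2 and 3. Over the 6807 genes, Pearson's correlation of log2(FPKM + 1) was 0.80 between replicates 1 and 2, 0.83 between 1 and 3, and 0.89 between 2 and 3. The share of genes whose values lay within 2-fold was 53.6%, 56.7% and 68.6% in the same order. These correlations run across genes, which are not independent replicates. Replicate 1 had more genes above 0 (15004, against 12985 and 12871) but fewer at 1 FPKM or more (8516, against 9656 and 10622). Transcript length was read for 6733 known genes of mean 5 FPKM or more and at 1 FPKM or more in at least 2 libraries. The log2 ratio of replicate 1 to the mean of replicates 2 and 3 was taken with 1 added to both values. By longest transcript its median was 0.12 up to 750 bases, 0.37 over 750 up to 1500 and 0.03 over 1500 up to 2500. It was -0.29 over 2500 up to 4000 bases and -0.52 over 4000 bases. The median for replicate 2 was -0.29 over 750 up to 1500 bases and 0.35 over 4000 bases. The part of transcript length in the differences described below was not tested.

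**Figure D1:**
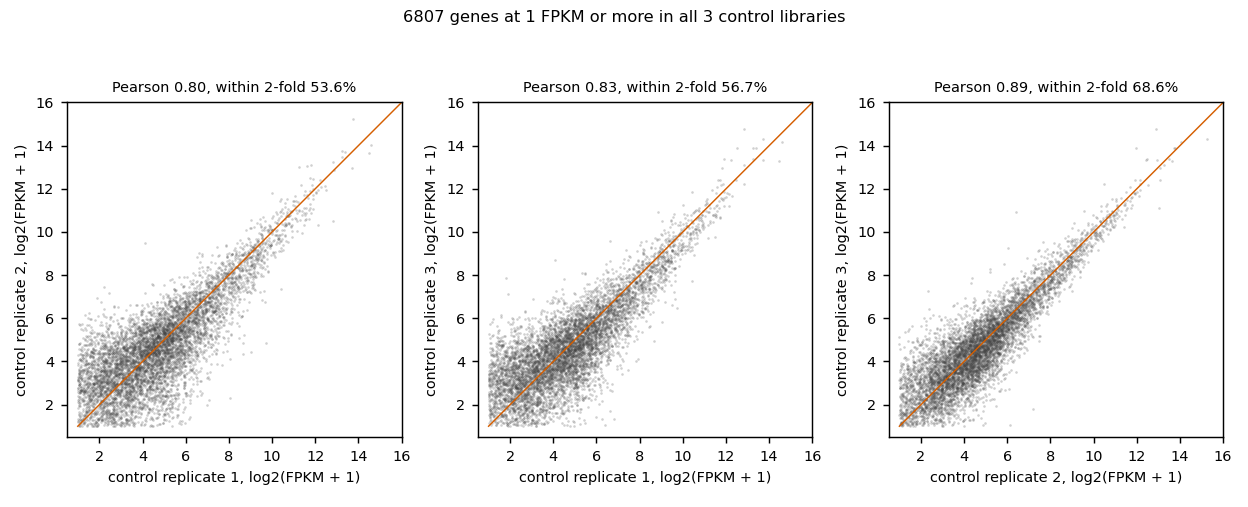
Each point is 1 of the 6807 genes at 1 FPKM or more in all 3 control libraries, plotted as log2(FPKM + 1) in 1 library against another, with the line of equal values. The cloud is narrowest for replicates 2 and 3 (68.6% of genes within 2-fold) and widest for replicates 1 and 2 (53.6%).

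All 5 pDC markers used to check the cell label were expressed in every library. Siglech encodes a sialic acid-binding lectin of mouse pDCs that signals through the adaptor DAP12. Its level was 2144, 3241 and 2777 FPKM in replicates 1, 2 and 3, with a mean of 2721 ± 551 (SD, n = 3), which placed it at rank 36 of the expressed genes. Cd7, an immunoglobulin superfamily glycoprotein also found on T and natural killer cells, was at 3085, 1861 and 2039 FPKM and rank 47. Replicate 1 was the lowest for Siglech and the highest for Cd7. The ranges of the 2 genes overlapped, so their order is not settled by these libraries.

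The remaining markers stood lower. Irf8, a transcription factor needed for dendritic cell development, was at 381, 487 and 711 FPKM and rank 274. Bst2, which encodes the pDC antigen and interferon-induced virus tether tetherin, was at 532, 170.0 and 563 FPKM and rank 357. Irf8 was highest in replicate 3, Bst2 was lowest in replicate 2, and the 2 ranges overlapped. Tcf4 was at 36.7, 121 and 127 FPKM and rank 1184, below the other 4 markers in every library and lowest in replicate 1. Its longest transcript is over 4000 bases, a class with low values in that library. The 5 markers summed to 6179, 5880.4 and 6218 FPKM, close to equal although single markers were high in different libraries. Most of each sum was Siglech and Cd7, whose order over the libraries was opposite, so the sum does not measure the share of pDCs. In bulk RNA a smaller number of cells of a type and less RNA per cell cannot be told apart.

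The promoters of Siglech and Bst2 are shown because these genes are the lineage markers at the top and near the bottom of the given set. Both windows run from 250 bases before to 50 bases after the start used for the promoter in RefSeq, build GRCm38.p6. For Siglech the RefSeq gene begins at base 55768154, so that start lies inside the gene. The Siglech window is chr7:55767934-55768233 on the plus strand, with the E-box letters CANNTG, which E proteins such as the Tcf4 product can bind, in capitals. The Bst2 window is chr8:71537423-71537722 on the minus strand, with the interferon response core, the letters GAAA, any 2 bases and GAAA again, in capitals.
Siglech: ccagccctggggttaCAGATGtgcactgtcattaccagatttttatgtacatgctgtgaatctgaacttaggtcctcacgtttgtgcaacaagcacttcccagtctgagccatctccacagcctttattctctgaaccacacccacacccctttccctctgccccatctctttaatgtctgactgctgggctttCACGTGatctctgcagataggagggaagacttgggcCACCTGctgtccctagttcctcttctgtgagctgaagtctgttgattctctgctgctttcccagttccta
Bst2: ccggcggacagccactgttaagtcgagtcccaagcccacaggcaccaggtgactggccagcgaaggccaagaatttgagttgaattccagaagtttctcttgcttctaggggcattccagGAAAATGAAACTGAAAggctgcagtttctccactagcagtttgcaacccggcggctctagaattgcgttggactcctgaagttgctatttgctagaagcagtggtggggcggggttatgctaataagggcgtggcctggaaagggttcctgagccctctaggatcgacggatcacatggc
The Siglech window held 3 matches to CANNTG and the Bst2 window 2 overlapping matches to the interferon response core. Both strands were searched, over the first promoter listed for each gene. The letters CANNTG occurred in 72.1% of all 27025 promoters in the table, in 61.7% of the 5072 promoters of expressed known genes and in 35 of the 44 promoters found for expressed pDC identity genes (79.5%). Such a match describes the letters and is not a binding site.

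Of 63 genes known for pDC identity, 55 were expressed (87.3%, against 35.4% of known genes), and the median of all 63 was 97.1 FPKM against 1.35 for all genes in the table. The list was assembled from knowledge of this lineage and with earlier results of these data in view, so its count is a description. The genes together took 4.56% ± 0.752 (SD, n = 3) of the summed FPKM. Surface proteins led it. Ly6c2, a GPI-anchored antigen of pDCs and monocytes, was at 4732, 5439 and 10395 FPKM and Ly6d, a related antigen of lymphoid progenitors, at 7213, 1445 and 4804 FPKM. Ly6c2 was highest in replicate 3, and Ly6d was about 5-fold higher in replicate 1 than in replicate 2.

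Other surface members were moderate. Ccr9, the receptor for the gut and thymus chemokine CCL25, was at 212, 380.5 and 259 FPKM. It was highest in replicate 2, as were Clec12a (177, 637 and 411 FPKM), an inhibitory lectin, and Ptprc (141, 388 and 162 FPKM), which encodes the phosphatase CD45. Flt3, the receptor of the cytokine that drives pDC development, was at 39, 111 and 269.9 FPKM, lowest in replicate 1 and highest in replicate 3. Cd209d, a DC-SIGN-like lectin, was listed at 0, 214 and 345 FPKM and so missed the minimum in replicate 1 alone. Pdcd1 was at or under 0.02 FPKM in every library.

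Of the 17 transcription factors on the list 13 were expressed. Spib, an Ets factor that maintains pDC identity, was at 313, 449 and 774 FPKM and rank 286, close to Irf8. Bcl11a was at 104, 112 and 75.8 FPKM, Runx2 at 44, 113 and 90.7 FPKM and Ikzf1, which encodes Ikaros, at 19.2, 61 and 64.3 FPKM. Of these, Spib, Runx2 and Ikzf1 were lowest in replicate 1, where Bcl11a was not. Zeb2, a repressor needed in pDC development, was at 0.48, 26.6 and 16.8 FPKM. Tcf3 was at 0, 11.4 and 2.39 and Ikzf3 at 0.06, 1.6 and 2.05 FPKM, and each of these 3 missed the minimum in replicate 1 alone. Cux2 was at 0.02, 0 and 0 FPKM.

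Among secreted and intracellular products 17 of 19 were expressed. Plac8, a small cysteine-rich protein, was at 3568, 8699.9 and 8046 FPKM. Cox6a2, the isoform of a cytochrome c oxidase subunit otherwise typical of heart and skeletal muscle, was at 4443, 1299.6 and 2364 FPKM. Plac8 was lowest in replicate 1, which was highest for Cox6a2. Mpeg1, a pore-forming protein of phagocytes, was at 1019, 3524 and 2459 FPKM, and its record in the table spanned 2.08 times its RefSeq length. Rnase6, an antimicrobial ribonuclease, was at 2305, 1911 and 1961 FPKM and varied little (coefficient of variation 10.4%). The kallikreins Klk1 and Klk1b27, near-identical serine proteases between which reads cannot be assigned with certainty, were at 521, 1519 and 1479 FPKM and at 696, 1545 and 1498 FPKM, in that order. Sct, the gut hormone secretin, was at 0.69, 2.03 and 72.7 FPKM and was high in replicate 3 alone.

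**Figure D2:**
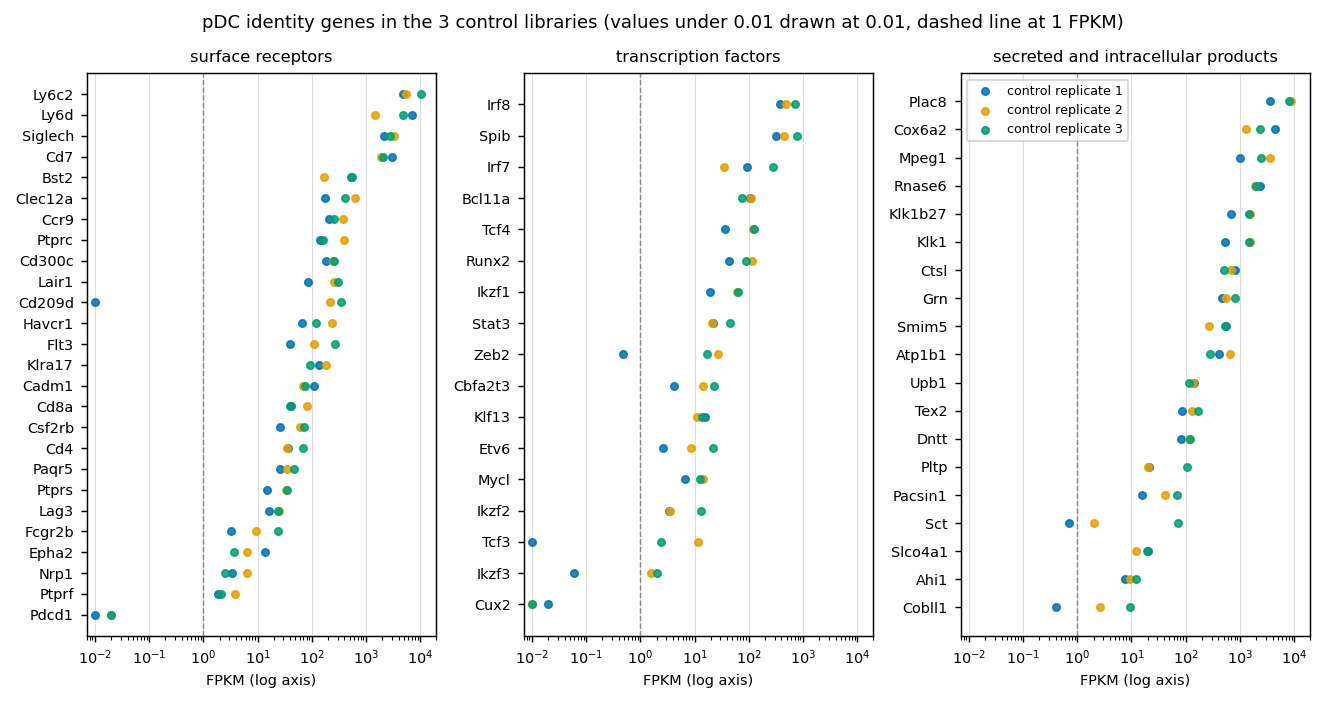
FPKM on a log axis of 62 of the 63 pDC identity genes in each control library, split by role, with values under 0.01 drawn at 0.01 and a dashed line at 1 FPKM. The 54 genes to the right of the line in all 3 libraries reach from Ly6c2 (up to 10395 FPKM) down to Ptprf, and replicate 1 falls left of the line for Cd209d, Zeb2, Tcf3, Ikzf3, Sct and Cobll1, as all 3 libraries do for Pdcd1 and Cux2.

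The top of the ranking was made of cytoskeletal, iron-storage, antigen-presenting and ribosomal genes. The 10 highest genes took 15.6% ± 1.95 of the summed FPKM (SD, n = 3), the 50 highest 31.6% ± 3.12 and the 1000 highest 78.9% ± 0.0319. Tmsb4x, the actin-sequestering thymosin beta-4, was first at 13579, 38510.2 and 20245 FPKM. It was nearly 3-fold higher in replicate 2 than in replicate 1, and in replicate 1 both ferritin genes stood above it. Ftl1 and Fth1, the light and heavy ferritin chains, were at 24848, 16828 and 18223 FPKM and at 22715, 12771 and 10104 FPKM, in that order, and both were highest in replicate 1. Tyrobp, the adaptor DAP12 through which Siglec-H and other receptors signal, was at rank 5 at 10707, 13451 and 15268 FPKM, with replicate 1 the lowest. Actb was at 9682, 13854 and 15089.7 FPKM, Ppia at 9653, 11409.7 and 10718 FPKM and B2m, the light chain of MHC class I, at 13513, 7907 and 10196 FPKM. Of these 3, B2m was highest in replicate 1 and the others lowest there.

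Several high genes differed strongly between libraries. Ifi27l2a, an interferon-inducible gene, was at 5840.5, 3955 and 15285 FPKM, and replicate 3 was above 2.5 times either other library. Cd74, the MHC class II invariant chain, was at 3818, 5664 and 10819 FPKM and was also highest there. Lgals1, which encodes galectin-1, was at 3668, 4572 and 4716 FPKM and Cst3, the protease inhibitor cystatin C, at 2595, 4604 and 3942 FPKM, both lowest in replicate 1. Arhgdib, a GDP-dissociation inhibitor of small GTPases, was at 3423, 2194 and 1619.7 FPKM and highest in replicate 1. Of each library's own 50 highest genes, 33 were shared by all 3.

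Some high values rest on what the record in the table covers. Nemf, a factor of ribosome quality control, stood at rank 4 at 7389.8, 7512 and 28092 FPKM, highest in replicate 3. Its record covers chr12:69159293-69361494 on mm10, 4.43 times the gene's length in RefSeq. In the GENCODE annotation of the same build that span holds the genes Rn7s1 (chr12:69159295-69159594) and Rn7s2 (chr12:69361182-69361481), at its 2 ends, which encode the 7SL RNA of the signal recognition particle. These 2 genes were looked at after the values were seen, and their part in the Nemf value was not tested. The records of Ly6c1 and Ly6c2 cover the same 117221 bases, chr15:74994877-75112097, which start at Ly6a, so the 3 genes may share reads. The records of Ppia and Rps27 lay on chromosome 9, away from the RefSeq positions of these genes. Of 6214 expressed known genes with a RefSeq position, 182 had a record over 1.5 times as long as in RefSeq and 33 had a record elsewhere.

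Of the 50 highest genes, 6 were loci named only by the provider. The highest of them, at chr16:19065227-19067191 on mm10, was at 3120, 8547 and 5388 FPKM and overlaps the immunoglobulin lambda segments Iglc3 and Iglj3 in the annotation. The next, at chr19:5800536-5843657, was at 2421, 8235 and 2199 FPKM and covers the nuclear RNAs Malat1 and Neat1. Both were highest in replicate 2. Another covers the mitochondrial genome and varied less (3853, 4104 and 3744 FPKM). The others overlap Rps27 or the pseudogenes Rpl31-ps8 and Rps6-ps4.

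**Figure D3:**
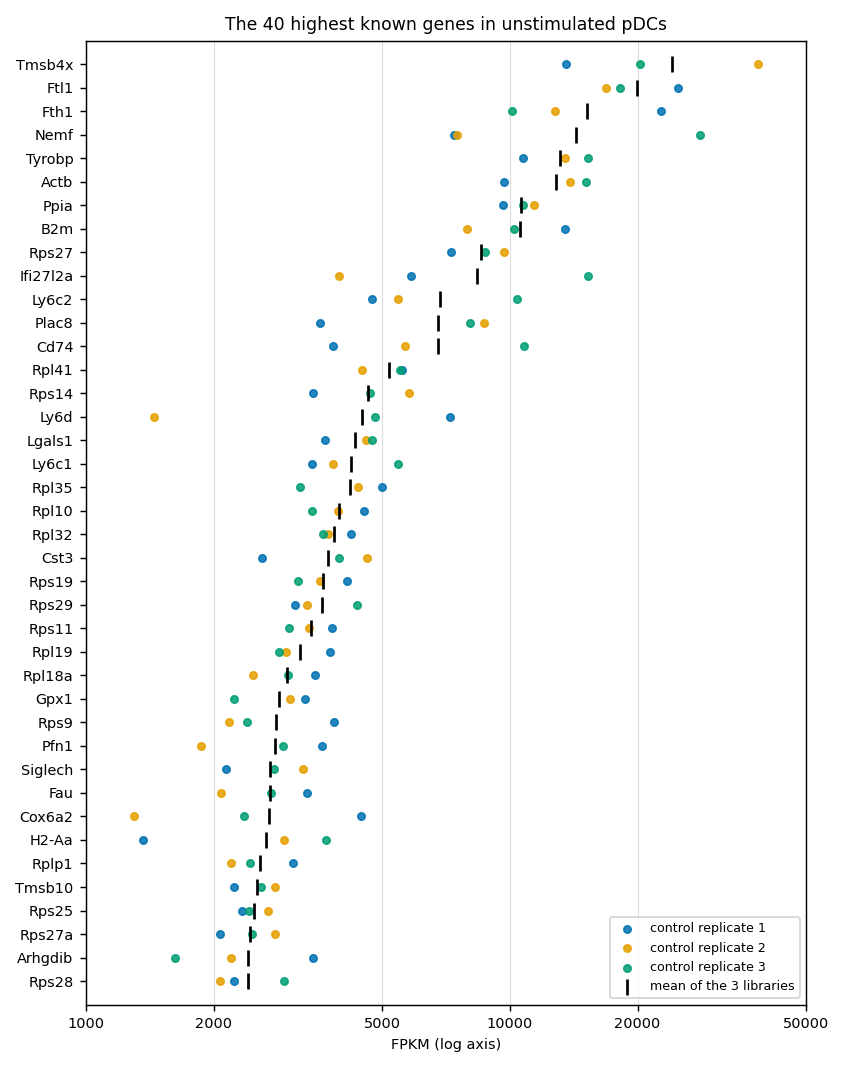
FPKM on a log axis of the 40 known genes with the highest mean, 1 dot per control library and a bar at the mean. Tmsb4x, Nemf, Ifi27l2a, Ly6d and Cox6a2 are spread widest, while Ppia, Rpl32 and Rps25 lie close together in the 3 libraries.

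Housekeeping machinery filled much of the high range. Cytosolic ribosomal protein genes made up 17 of the 40 highest known genes, and 84 of the 86 in the table were expressed, with a median of 1191 FPKM and 14.3% ± 0.43 of the summed FPKM. The 2 exceptions, Rpl10l and Rpl32l, were at or under 0.1 FPKM. Rps27 was at 7261, 9691 and 8746 FPKM and Rpl41 at 5559.8, 4485 and 5489 FPKM. Ribosomal genes can share reads with processed copies, so single values are uncertain. Subunits of oxidative phosphorylation were expressed for 77 of 80 (median 445 FPKM) and proteasome subunits for 40 of 43 (median 151 FPKM). All 20 translation and RNA-binding factors were expressed, led by Fau (3322, 2076 and 2727 FPKM) and the elongation factor Eef1a1 (2991, 1527 and 1668 FPKM). Both were highest in replicate 1.

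Cytoskeletal and redox genes were similarly complete. Of 20 genes of the actin cytoskeleton 19 were expressed. Pfn1, which encodes the actin-binding protein profilin 1, was at 3596, 1863 and 2915 FPKM and Tmsb10 at 2234, 2788 and 2583 FPKM. Myl6, a myosin light chain, was at 1675, 1712 and 1681 FPKM and had the smallest coefficient of variation of the named genes of mean 50 FPKM or more (1.19%). Among iron and redox genes 17 of 22 were expressed. The peroxide-reducing Gpx1 was at 3289.9, 3019 and 2234 FPKM, the superoxide dismutase Sod1 at 2697, 1769.7 and 1423 FPKM and the peroxiredoxin Prdx1 at 1746, 1338 and 1079 FPKM, each highest in replicate 1 and lowest in replicate 3. Slc40a1, the iron exporter ferroportin, was at 0.01, 0 and 0 FPKM.

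The route by which pDCs sense nucleic acid was transcribed unevenly. Of 12 Toll-like receptor genes, only Tlr7 and Tlr9 reached 1 FPKM in all 3 libraries (16.7%, against 35.4% of known genes). Tlr7 was at 169, 119.6 and 143 FPKM with a mean of 144 ± 24.5 (SD, n = 3). Tlr9, the receptor for CpG DNA, was at 5.87, 1.96 and 6.41 FPKM with a mean of 4.75 ± 2.43. The ranges did not overlap, and every library held more Tlr7 than Tlr9 per length. Tlr12 was at 0.87, 2.83 and 2.06 and Tlr6 at 0, 23.2 and 18.5 FPKM. Tlr1 (0.05, 0 and 2.47 FPKM), Tlr2 (0, 3.93 and 0.35 FPKM) and Tlr4 (0.23, 1.02 and 0.18 FPKM) were low, Tlr8 and Tlr11 were under 0.1 FPKM, and Tlr3, Tlr5 and Tlr13 were listed at 0 in every library.

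Genes for trafficking and cleavage of the receptors were expressed for 15 of 16, with a median of 79.3 FPKM. Unc93b1, which carries TLR7 and TLR9 to endosomes, was at 61, 60 and 154 FPKM and Slc15a4, an endolysosomal transporter needed for their signalling, at 57, 76.3 and 68 FPKM. Hsp90b1, the chaperone gp96 that folds the receptors, was at 319, 501 and 457 FPKM. The cleaving proteases Ctss and Ctsl were at 2422, 2012 and 1460.4 FPKM and at 805, 693 and 503 FPKM, in that order, and both were highest in replicate 1. Bloc1s1, a subunit of a complex in the biogenesis of lysosome-related organelles, was at 972, 615 and 603 FPKM.

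Adaptors and kinases were expressed for 11 of 16 (68.8%, against 35.4% of known genes) at lower levels. Myd88 was at 20.7, 25.4 and 57.6 FPKM, Irak4 at 15.1, 12.9 and 16.8 FPKM, Irak1 at 20.2, 23.8 and 20.3 FPKM and Traf6 at 4.18, 7.5 and 9.05 FPKM. Traf3, which couples the receptors to interferon induction, was at 0, 6.06 and 1.8 FPKM and Btk at 0.9, 27.9 and 35.5 FPKM. Irak3, an inhibitor of the pathway, was listed at 0 in every library.

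Nucleases that trim the ligands were prominent, with 11 of 14 expressed (78.6%, against 35.4% of known genes) and a median of 54.9 FPKM. Pld4, an endolysosomal exonuclease, was at 423, 411 and 854 FPKM and Trex1, the cytosolic DNA exonuclease, at 473, 212 and 563 FPKM. Both were highest in replicate 3. Rnaset2a and Rnaset2b, near-identical ribonucleases whose reads may be shared, were at 1597, 1726 and 1139.9 FPKM and at 574, 165 and 107 FPKM, in that order, while Pld3 was at 0.04, 4.71 and 3.86 FPKM. Of 10 genes of cytosolic sensing 6 were expressed (60%, against 35.4% of known genes). Sting1 was at 84.6, 55.3 and 53 FPKM and the Z-nucleic acid sensor Zbp1 at 37.8, 17.8 and 51.7 FPKM. The DNA sensor Cgas was at 0.01, 0.15 and 2.58 FPKM, the RNA sensors Ddx58 and Ifih1 were at 3.47, 5.87 and 3.55 FPKM and at 0.02, 2.02 and 1.96 FPKM, in that order, and Mavs was at 9.89, 4.98 and 7.11 FPKM.

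Lysosomal proteases and their inhibitors were expressed for 22 of 26, with a median of 83.4 FPKM and a sum that varied little between libraries (9297, 10378 and 9447 FPKM). Besides Cst3, Ctss and Ctsl, the macrosialin Cd68 was at 777, 636 and 526 FPKM and the sphingolipid activator Psap at 280.4, 232 and 599 FPKM. Cd68 was highest in replicate 1 and Psap in replicate 3. Cd63, a tetraspanin of late endosomes, was at 127, 8.37 and 25.7 FPKM. It was among the 10 most variable genes expressed in all 3 libraries at a mean of 50 FPKM or more, predicted names left out.

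No gene of the type I and III interferons met the minimum in all 3 libraries, of 17 in the table (against 35.4% of known genes). Ifnb1 came closest at 3.23, 1.54 and 0.87 FPKM and failed only in replicate 3, so that 1 interferon gene counted without that library. Ifnl3 was at 1.88, 0 and 0 FPKM, the other 15 were under 0.3 FPKM, and 8 were listed at 0 in every library. The 3 libraries summed to 5.73, 2.08 and 0.87 FPKM over the list.

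Receptors and signalling of interferon were present for 14 of 17, with a median of 29.4 FPKM. Ifnar2 was at 593, 260.1 and 218 FPKM, highest in replicate 1, and Ifnar1 at 19.8, 28.7 and 46.2 FPKM, highest in replicate 3. The 2 chains of the same receptor thus differed more than 4-fold in each library. Stat2 was at 31.3, 40.9 and 61.8 FPKM and highest in replicate 3. Jak1 was at 96.2, 34.3 and 58.3 FPKM, Ifngr1 at 96.8, 29 and 34.7 FPKM and Il10rb at 14.7, 98.5 and 65.7 FPKM. Ifnlr1, the specific chain of the type III receptor, was at 0, 0.01 and 0 FPKM.

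Interferon regulatory factors were expressed for 8 of 9. After Irf8 came Irf7, the main inducer of type I interferon in pDCs, at 91.7, 35.4 and 283 FPKM with a mean of 137 ± 129.7 (SD, n = 3), a range of 8-fold. Irf9, a DNA-binding partner of STAT2, was at 123, 43 and 116 FPKM. Irf1 was at 31.3, 41.4 and 59 FPKM, Irf5 at 58.1, 26.4 and 42 FPKM, Irf3 at 24.5, 15.5 and 22 FPKM, Irf2 at 22.5, 8.4 and 15.2 FPKM and Irf4 at 4.89, 4.95 and 3.51 FPKM. Replicate 2 was lowest for Irf7, Irf9, Irf5, Irf3 and Irf2.

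Interferon-stimulated genes were split. Of 54, 30 were expressed (55.6%, against 35.4% of known genes), and the median of the list was 12.8 FPKM. The most highly expressed were Bst2, Ifitm3 (403, 19.2 and 196 FPKM), an inhibitor of viral entry, Ifi47 (87.3, 149.7 and 184 FPKM), a GTPase, and Ifi35 (99.8, 117 and 172 FPKM). Ifitm genes are near-identical to one another. Ifi44 was at 108, 76 and 178 FPKM and Ifi44l at 157, 48.4 and 141 FPKM. Ifitm6 was listed at 168, 0 and 0 FPKM.

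Members of the list with low values, named after their values were seen, include well known interferon-induced genes. Isg15, a ubiquitin-like modifier, was at 0.21, 0.26 and 8.36 FPKM and Ifit1, which binds viral RNA, at 0.63, 0.32 and 7.03 FPKM. Ifit3 was at 0.09, 0.6 and 1.74 FPKM, Rsad2, which encodes viperin, at 0.06, 0.08 and 0.03 FPKM and Cxcl10 at 0.13, 0.12 and 0.42 FPKM. Both Isg15 and Ifit1 were above 1 FPKM in replicate 3 alone, while Ifi44, Ifi44l and Usp18, which are also strongly induced by interferon, were expressed in all 3 libraries. That library was also the highest for Irf7, Usp18 (13.3, 11.6 and 103 FPKM) and Ifi27l2a, and the sum of the list was 2596, 1387 and 2864 FPKM. Replicate 3 also held the highest sum of progenitor markers, 476, 93 and 1957 FPKM, nearly all from the interferon-inducible Ly6a. Of the other progenitor markers the highest was Hoxa9, which was lowest in replicate 3 (12.8, 5.9 and 3.18 FPKM). Sox4 (0.09, 0.07 and 2.2 FPKM), Meis1 and Kit were low and highest in replicate 3, where Gata2 and Cd34 were listed at 0. The part of the progenitor markers in the levels of the interferon-stimulated genes was not tested.

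The promoters of Irf7, Isg15 and Ifit1 are shown because they belong to 1 gene of the interferon response that was expressed in all 3 libraries and 2 that passed in replicate 3 alone. The windows in RefSeq, build GRCm38.p6, are chr7:141266375-141266674 on the minus strand, chr4:156200769-156201068 on the minus strand and chr19:34640639-34640938 on the plus strand. Capitals mark matches to the interferon response core on either strand, and those of Ifit1 are on the strand opposite to the one printed.
Irf7: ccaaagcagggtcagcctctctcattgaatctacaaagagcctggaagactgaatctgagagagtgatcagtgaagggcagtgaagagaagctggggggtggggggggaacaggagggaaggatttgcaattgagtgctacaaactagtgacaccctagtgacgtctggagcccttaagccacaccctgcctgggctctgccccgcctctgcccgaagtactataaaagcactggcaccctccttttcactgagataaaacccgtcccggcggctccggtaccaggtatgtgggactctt
Isg15: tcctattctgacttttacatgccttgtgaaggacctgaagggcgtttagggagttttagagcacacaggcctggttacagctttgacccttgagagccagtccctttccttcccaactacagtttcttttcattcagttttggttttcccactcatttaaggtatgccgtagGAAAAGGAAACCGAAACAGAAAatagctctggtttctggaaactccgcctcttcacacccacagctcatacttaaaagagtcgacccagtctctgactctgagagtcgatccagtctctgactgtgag
Ifit1: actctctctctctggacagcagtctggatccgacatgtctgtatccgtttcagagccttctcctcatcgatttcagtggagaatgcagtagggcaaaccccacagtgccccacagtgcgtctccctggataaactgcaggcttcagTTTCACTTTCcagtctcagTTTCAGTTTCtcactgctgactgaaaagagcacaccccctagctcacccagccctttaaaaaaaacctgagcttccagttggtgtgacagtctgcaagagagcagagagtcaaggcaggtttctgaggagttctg
The Isg15 window held 3 overlapping matches, the Ifit1 window 2 and the Irf7 window 0, which says only that these letters are not in this window. Among expressed interferon-stimulated genes 10 of 22 promoters held the letters (45.5%), and among those not expressed in all 3 libraries 15 of 21 (71.4%), against 3.49% of all promoters. Nothing about a factor is read from a match.

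**Figure D4:**
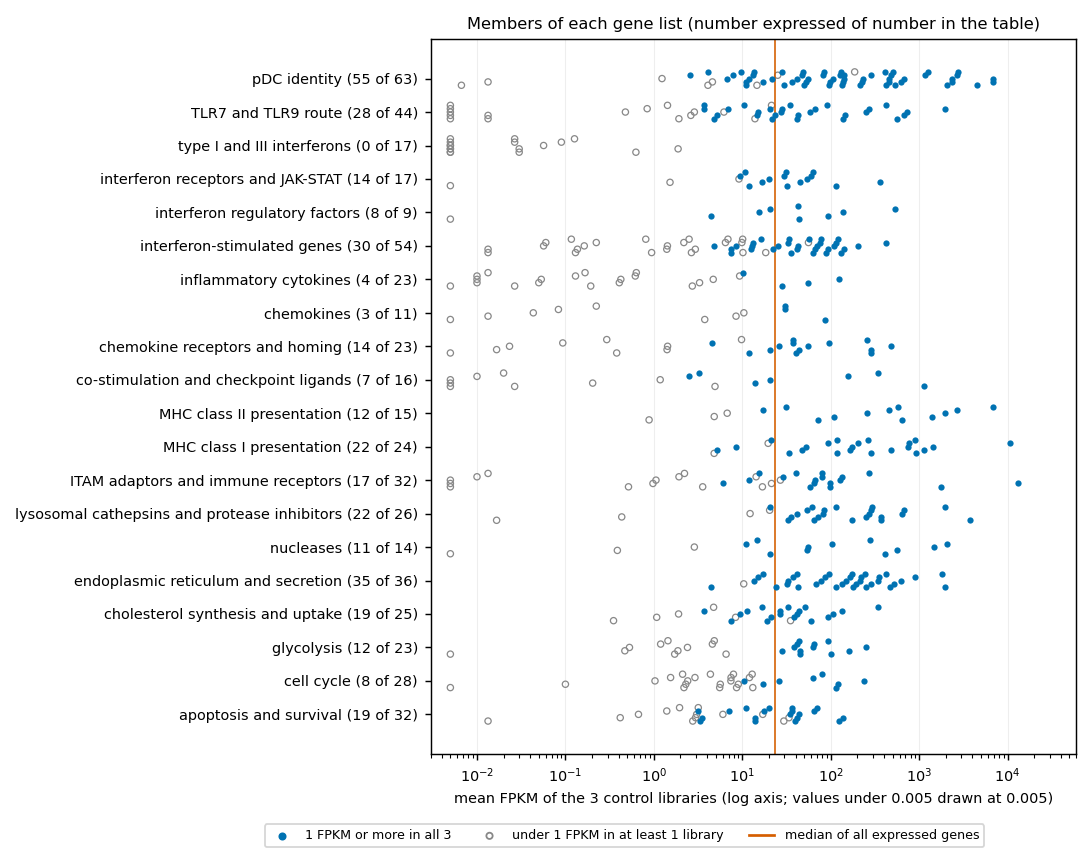
Mean FPKM on a log axis of the members of 20 gene lists, filled where a gene was at 1 FPKM or more in all 3 control libraries and open where it was not, with a line at the median of all expressed genes (23.3 FPKM). Interferons, cytokines, chemokines and the cell cycle are mostly open, while antigen presentation, lysosomal and endoplasmic reticulum genes are mostly filled and lie to the right of the line.

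Cytokine genes were mostly below the minimum. Of 23, 4 were expressed (17.4%, against 35.4% of known genes). Ltb, the membrane-bound lymphotoxin beta, was at 230.1, 41.5 and 105 FPKM. Il12a, the p35 chain of interleukin 12, was at 101, 22.9 and 40.1 FPKM, while Il12b, its p40 partner, was at 0, 0.12 and 0.03 FPKM. Ltb and Il12a were both highest in replicate 1 and lowest in replicate 2. Il16 was at 25.7, 36.5 and 22.1 FPKM and Tgfb1 at 5.87, 15.3 and 9.3 FPKM. Tnf was at 26.8, 0.21 and 0.98 FPKM, so it passed in replicate 1 only. Il6 (0, 0.2 and 0.38 FPKM) and Il1b (0, 0.13 and 0.03 FPKM) were under 0.4 FPKM, Il10 was listed at 0 throughout, and Ebi3 (0.29, 0.78 and 13 FPKM), Il15 (0, 0 and 9.86 FPKM) and Il18 (0, 0 and 8.17 FPKM) passed in replicate 3 only. Lta, Tnfsf10, Csf2 and Spp1 reached 1 FPKM in 1 library each, and the remaining cytokine genes, Il27, Il1rn, Tnfsf9, Il23a, Csf1, Tnfsf13 and Tnfsf13b, in none.

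Of 11 chemokine genes 3 were expressed (27.3%, against 35.4% of known genes), and 5 without replicate 1, where the count over all genes rose from 6807 to 8750. The inflammatory chemokine genes Ccl3 and Ccl4 were at 40.9, 30.2 and 20.4 FPKM and at 39.8, 21.6 and 29.3 FPKM, in that order, and both were highest in replicate 1. Ccl5 was at 2.47, 19.3 and 236 FPKM, the largest coefficient of variation (152%) among the genes expressed in all 3 libraries at a mean of 50 FPKM or more, loci with predicted names left out. Ccl6 was at 0, 30.2 and 1.07 FPKM, Xcl1 at 0, 14.9 and 10.6 FPKM and Ccl9 at 11, 0.29 and 0 FPKM. Cxcl9, Cxcl11, Cxcl16 and Ccl22 were under 0.3 FPKM in every library.

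Receptors for migration were broader, with 14 of 23 expressed (60.9%, against 35.4% of known genes). Besides Ccr9 they include Selplg, the P-selectin ligand, at 319, 190.4 and 336 FPKM and Ccr2 at 108, 479.5 and 178 FPKM. Cxcr3, which guides cells to inflamed tissue, was at 69.2, 28.1 and 69.1 FPKM. Replicate 2 was highest for Ccr2 and lowest for Cxcr3 and Selplg. Ccr7, which guides mature dendritic cells to lymph nodes, was at 18.5, 0.46 and 10.5 FPKM and Cmklr1 at 0, 0.19 and 4.1 FPKM.

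Co-stimulatory and checkpoint genes ranged from high to 0. Of the 16 genes 7 were expressed (43.8%, against 35.4% of known genes), among them Cd52 (709, 1254 and 1468 FPKM), the 'do not eat me' signal Cd47 (305, 298 and 431 FPKM) and Cd200 (79.8, 215 and 178 FPKM). Cd52 had a record 3.74 times its RefSeq length. Icam1 was at 23, 21.8 and 16.8 FPKM, Ido1 at 8.13, 18.1 and 16 FPKM, Icosl at 3.36, 1.86 and 2.3 FPKM and Cd274, which encodes PD-L1, at 4.99, 3.31 and 1.51 FPKM. Cd86 was at 0.05, 5.86 and 8.84 FPKM and Cd40 at 0.11, 0.32 and 0.18 FPKM. Tnfrsf9 was at 0.02, 3.52 and 0 FPKM, Cd83, Tnfsf4 and Tnfsf9 were under 0.1 FPKM, and Cd80, Cd70 and Pdcd1lg2 were listed at 0 in every library.

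MHC class II genes were high while their master regulator was low. Of 15 genes 12 were expressed, with a median of 254 FPKM. H2-Aa was at 1362, 2938 and 3679.6 FPKM and H2-Ab1 at 766, 1663 and 1805 FPKM, lowest in replicate 1 like Cd74. H2-Eb1 was at 96.2, 518 and 758 FPKM and H2-Ea at 469, 844 and 395 FPKM. The peptide-loading chain H2-DMa was at 242, 231 and 290.5 FPKM, against 21.8, 74.5 and 228 FPKM for its partner H2-DMb1 and 0, 0 and 2.65 FPKM for H2-DMb2. Ciita, the transactivator of these genes, was at 0.02, 3.75 and 10.7 FPKM. The inhibitors of loading H2-Oa and H2-Ob were at 39.8, 92.7 and 82.2 FPKM and at 0.15, 4.48 and 15.6 FPKM, in that order, H2-Eb2 was at 17.4, 54.9 and 22.2 FPKM, and Marchf1, a ubiquitin ligase that removes class II from the surface, was at 17.6, 24.3 and 9.47 FPKM. Ifi30, a lysosomal thiol reductase, was at 812, 573 and 518 FPKM and highest in replicate 1.

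MHC class I presentation was expressed for 22 of 24, and its 6 leading genes were highest in replicate 1 or 3 and lowest in replicate 2. After B2m came the proteasome activator Psme2 (1877, 1186 and 1204 FPKM), H2-D1 (1413, 944 and 1055 FPKM), H2-K1 (1063, 515 and 1168 FPKM), the immunoproteasome subunit Psmb8 (1350.1, 549 and 787 FPKM) and Psme1 (947, 661 and 670.0 FPKM). Class I heavy chains are near-identical, and their reads may be shared. H2-T22 (7.98, 0 and 50.9 FPKM) and the transactivator Nlrc5 (0.04, 2.79 and 11.6 FPKM) were the 2 members not expressed in all libraries.

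Tyrobp and Fcer1g, adaptors with an immunoreceptor tyrosine-based activation motif (ITAM), led the list of adaptors and immune receptors. Of 32 genes 17 were expressed (53.1%, against 35.4% of known genes), and the list summed to 13281, 16641 and 18591 FPKM, most of it Tyrobp. Fcer1g, the common Fc receptor gamma chain, was at 1465, 1858 and 1959 FPKM and Hcst, the adaptor DAP10, at 284, 245 and 278 FPKM. Klra17 was at 134, 179.6 and 91.7 FPKM, Blnk at 88.3, 134 and 158 FPKM, its partner phospholipase Plcg2 at 42.1, 87.6 and 166 FPKM and the kinase Syk at 19.3, 32.2 and 35.3 FPKM. Replicate 3 was highest for Tyrobp, Fcer1g, Blnk, Plcg2 and Syk, and replicate 1 lowest for all of these. The activating receptor genes Fcgr1, Fcgr4 and Treml4 were at or under 0.02 FPKM.

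C-type lectins were expressed for 8 of 24 (33.3%), a share near the 35.4% of known genes. Klrd1, the CD94 chain of natural killer receptors, was at 389, 724 and 327 FPKM. Cd209a and Cd209c, near-identical to Cd209d, were at 182, 468 and 316 FPKM and at 20.7, 55.1 and 52.8 FPKM, in that order, and highest in replicate 2. Clec9a, a receptor for dead cells known from type 1 conventional dendritic cells, was at 130.2, 30.1 and 32.5 FPKM and highest in replicate 1. Cd72 was at 32.1, 40.7 and 112 FPKM and Clec2i at 39.6, 77.4 and 54.5 FPKM. Of the Ly6 family 5 of 10 genes were expressed (50%). Besides Ly6c1, Ly6c2 and Ly6d these were Ly6e (1736, 742 and 1987 FPKM) and Ly6a (463, 82.9 and 1949 FPKM), both lowest in replicate 2 and highest in replicate 3. Ly6k was at 0, 0.13 and 63.6 FPKM, Ly6i at 8.61, 0.09 and 1.35 FPKM and Ly6g5b at 0.05, 0.4 and 11.5 FPKM, and Ly6g and Ly6h were listed at 0.

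The secretory pathway was almost fully expressed. Of 36 endoplasmic reticulum genes 35 passed, with a median of 157 FPKM, and the sum was close to equal in the libraries (10092, 10496 and 10298 FPKM). The translocon subunits Sec61b and Sec61g were at 1551, 2257 and 2092 FPKM and at 1414, 2109 and 1887 FPKM, in that order, both lowest in replicate 1. Xbp1, the transcription factor that drives secretory capacity, was at 541, 356 and 496 FPKM, while its activating enzyme Ern1 was at 42, 26.7 and 3.89 FPKM. Srp14, a protein of the signal recognition particle, was at 1169, 934 and 566 FPKM, Ssr4 at 657, 543 and 667 FPKM and Spcs1, a signal peptidase subunit, at 534, 628 and 399 FPKM. Ero1l (0, 10.3 and 20.9 FPKM) was the only member that missed the minimum.

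Metabolic lists had moderate levels. Cholesterol synthesis and uptake was expressed for 19 of 25 (median 26.5 FPKM) and summed to 869.9, 952 and 1597 FPKM, highest in replicate 3. Fdps was at 289.7, 234 and 503 FPKM, Insig1, an inhibitor of the pathway's activation, at 57.8, 145 and 118 FPKM and Msmo1 at 47.3, 83.7 and 151 FPKM. Fatty acid oxidation was expressed for 18 of 22, led by the electron transfer flavoprotein chains Etfb (354, 118 and 216 FPKM) and Etfa (109, 71.1 and 74 FPKM).

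Of 23 glycolysis genes 12 were expressed (52.2%, against 35.4% of known genes). Aldoa was at 224, 168 and 366 FPKM, Ldha at 118, 129 and 235 FPKM, Gapdh at 154, 77 and 70.8 FPKM and Pgk1 at 94.3, 83.9 and 104 FPKM. Gapdh, Aldoa and Ldha have processed copies that can share reads. The hexokinases, which take the first step, were low, with Hk1 at 0.13, 4.62 and 2.45 FPKM, Hk2 at 0.04, 1.21 and 3.91 FPKM and Hk3 listed at 0. The glucose transporter Slc2a1 was at 0, 6.17 and 8.3 FPKM.

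The cell cycle list had its highest level in replicate 1. Its sum was 1522, 324 and 498 FPKM. Of 28 genes 8 were expressed (28.6%, against 35.4% of known genes), a further 18 reached 1 FPKM in 1 or 2 libraries, and 16 were expressed without replicate 2, where the count over all genes rose from 6807 to 7395. Hmgb2, a chromatin protein of dividing cells, was at 454, 149 and 115 FPKM, Stmn1 at 271, 37.3 and 39.6 FPKM, the ubiquitin-conjugating enzyme Ube2c at 268, 16.1 and 79.3 FPKM, the replication clamp Pcna at 109, 59.7 and 67.2 FPKM and Birc5 at 131, 8.74 and 51.3 FPKM. Mcm7 was at 50.4, 12 and 16.1 FPKM. Each was highest in replicate 1. Mki67, the usual marker of proliferation, was at 4.03, 0.01 and 3.2 FPKM. The natural killer marker list moved in the same order over the libraries (807, 21.5 and 309.9 FPKM). So did the monocyte and mature dendritic cell markers, the inflammatory cytokines and the NF-kB genes, while other lists had other orders. The part of any of these lists in the cell cycle levels was not tested.

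Survival and stress genes gave a mixed picture. Of 32 apoptosis genes 19 were expressed (59.4%, against 35.4% of known genes). Bax, which permeabilises mitochondria, was at 273, 36.9 and 106 FPKM, the inflammatory caspase Casp1 at 38, 216 and 115 FPKM, Birc3 at 73.6, 101 and 35.6 FPKM and Cdkn1a, the p53 target p21, at 125, 9.89 and 57.3 FPKM. Bax and Cdkn1a were highest in replicate 1 and lowest in replicate 2, and Casp1 the reverse. Bcl2, a survival factor of pDCs, was at 0.97, 1 and 0.04 FPKM.

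Immediate early and stress genes were expressed for 14 of 32 (43.8%, against 35.4% of known genes). The chaperones Hspa8 (184, 161 and 309.9 FPKM) and Hsp90aa1 (162, 230.2 and 187 FPKM) led, followed by Hsp90ab1 (70.3, 174 and 219.7 FPKM), the antiproliferative Btg1 (72.3, 112 and 89.4 FPKM) and Btg2 (5.44, 94.3 and 78.4 FPKM), and the transcription factor Klf2 (47.2, 78.8 and 64.8 FPKM). Fos and Egr1, often raised by cell handling, were at 0, 0 and 6.22 FPKM and at 0, 0 and 3.94 FPKM, in that order, and Nr4a1 was listed at 0.

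Subunits and inhibitors of NF-kB were expressed for 12 of 14 (85.7%, against 35.4% of known genes) at a low median of 8.97 FPKM. At a minimum of 5 FPKM only 5 counted. The inhibitor Nfkbia was at 112, 17.7 and 69.8 FPKM, Rela at 60.3, 19.2 and 25.7 FPKM and Nfkbid at 35.2, 14.2 and 28.9 FPKM. Nfkbia and Rela were highest in replicate 1 and lowest in replicate 2.

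E proteins and their inhibitors were expressed for 4 of 6 genes. Id3, an inhibitor of E proteins such as E2-2, was at 655, 269.7 and 209 FPKM, above Tcf4 in every library. Id2, which opposes pDC fate, was at 47.6, 1.9 and 9.99 FPKM, and Tcf12 was at 37.2, 60.6 and 64.6 FPKM. Id3 and Id2 were highest in replicate 1, where Tcf4 and Tcf12 were lowest. Id1 was listed at 0. Growth factor and cytokine receptors were expressed for 14 of 22 (63.6%, against 35.4% of known genes). They were led by the common gamma chain Il2rg (205, 73.3 and 185 FPKM), Flt3, Il7r (78.4, 198 and 93.7 FPKM), Tnfrsf13b (96.3, 142 and 94.8 FPKM), which encodes TACI, and the beta chains Csf2rb2 (34.7, 86.2 and 68.6 FPKM) and Csf2rb (25.8, 61.9 and 70.7 FPKM).

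Lists of markers for other bone marrow cell types held members at or near 0 beside members that were measured. At 0 or below 0.3 FPKM in every library were Cd3e and Bcl11b of T cells, Pax5, Ebf1, Cr2 and Vpreb3 of B cells, Ly6g and Ltf of neutrophils, Adgre1 and Csf1r of macrophages, and Xcr1 and Batf3 of type 1 conventional dendritic cells. So were Zbtb46 (0.18, 0.02 and 0 FPKM), the factor of conventional dendritic cells, and Cd34 (0.02, 0 and 0 FPKM), the progenitor antigen. Jchain of plasma cells and Lyz2 of myeloid cells were listed at 0 throughout.

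Other members of the same lists were higher. Of 7 T cell markers 1 was expressed (14.3%, against 35.4% of known genes), Cd28 (46.1, 78 and 42.7 FPKM), and the list summed to 90.8, 90.1 and 67.1 FPKM. Of the T cell receptor complex, Cd3d was at 0.07, 8.78 and 14.8 FPKM and Cd3g at 0, 0 and 8.08 FPKM, beside Cd3e listed at 0. Lat, an adaptor of that receptor, was at 44.6, 0 and 1.33 FPKM and Cd5 at 0, 3.38 and 0.26 FPKM. Of 10 B cell markers 1 was expressed (10%), Cd79b (45.8, 93.6 and 54.1 FPKM), while Cd79a was at 72.9, 0 and 8.03 FPKM and Blk at 0, 5.87 and 16.7 FPKM. The B cell list summed to 120.3, 100.4 and 81.4 FPKM. Of 6 plasma cell markers 2 were expressed (33.3%, against 35.4% of known genes), Irf4 and Mzb1 (636, 487 and 433 FPKM). The list summed to 644, 507 and 463 FPKM, nearly all from Mzb1, a chaperone that pDCs also express. Sdc1 was at 0.18, 13.5 and 15.5 FPKM, Tnfrsf17 at 0, 0 and 8.57 FPKM and Prdm1 at 2.36, 0.7 and 2.38 FPKM. Ighg1 and Igha have no value here. The locus over Iglc3 and Iglj3 (3120, 8547 and 5388 FPKM) is in neither the B cell nor the plasma cell list. The cell type its reads come from was not tested.

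Natural killer markers differed widely between libraries. They summed to 807, 21.5 and 309.9 FPKM, with 2 of 9 expressed (22.2%, against 35.4% of known genes), Gzma (266, 3.95 and 153 FPKM) and Klre1 (78.5, 10.8 and 51.9 FPKM). Nkg7, a cytotoxic granule protein, was at 416, 0.79 and 94.7 FPKM. Replicate 2 was lowest for all 3 genes and replicate 1 highest. The receptor genes Klra4 and Klra8 were listed at 35.6, 0 and 0 FPKM and at 6.42, 5.81 and 0 FPKM, in that order. Whether the reads listed under these names on mm10 come from these genes in BALB/c cells was not tested. Eomes, a transcription factor of natural killer cells, was at 4.05, 0.01 and 7.61 FPKM. Ncr1 (0, 0.06 and 0.06 FPKM), Klrb1c (0, 0 and 1.61 FPKM) and Prf1 (0, 0.03 and 1.24 FPKM) were listed at 0 in replicate 1, where the sum and 5 of the other 6 markers were highest.

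Dendritic and myeloid lists differed in how many members carried them. Type 2 conventional dendritic cell markers summed to 328, 643 and 504 FPKM with 4 of 8 expressed (50%, against 35.4% of known genes). These were Cd209a, Sirpa (54.8, 88.7 and 93.7 FPKM), Mgl2 (59.6, 12.8 and 7.46 FPKM) and Cd1d1 (31, 24.6 and 16.2 FPKM). Clec10a (0, 48 and 70.4 FPKM) missed the minimum in replicate 1 alone. Itgam was at 0.65, 0 and 0.23 FPKM, and Zbtb46 and Clec4a4 were lower. Type 1 markers summed to 283, 144 and 140.4 FPKM with 3 of 8 expressed (37.5%, near the share of known genes). These were Cadm1 (109, 69 and 73.9 FPKM), Clec9a and Wdfy4 (43.9, 37.4 and 27.9 FPKM), of which Cadm1 is also in the pDC list. Batf3 was at 0, 0.28 and 0 FPKM. Monocyte and macrophage markers summed to 30.9, 5.92 and 15.4 FPKM, nearly all Cd14 (30.5, 5.57 and 15.4 FPKM), and neutrophil markers to 0.16, 2.99 and 19.1 FPKM, with Mpo at 0, 2.98 and 0 FPKM and Csf3r at 0.09, 0.01 and 1.99 FPKM. Markers of mature dendritic cells summed to 18.7, 3.8 and 11.2 FPKM, mostly Ccr7.

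The remaining lists were low. Erythroid markers summed to 38.6, 0.09 and 0.61 FPKM, almost all from Hba-a1 (36.3, 0.09 and 0 FPKM) in replicate 1, while Hba-a2 was listed at 0. Progenitor markers other than Ly6a were at most 12.8 FPKM, with Kit at 0.01, 0.03 and 1.14 FPKM. Stroma and endothelium summed to 4.73, 34.1 and 21.7 FPKM, mostly Pecam1 (3.33, 31.1 and 11.7 FPKM), and megakaryocytes and platelets to 2.63, 1.16 and 1.63 FPKM. Basophils and mast cells summed to 0.04, 22.4 and 1.14 FPKM. Their Mcpt8 (0, 14.8 and 0 FPKM), Ms4a2 (0.02, 4.35 and 0 FPKM) and Gata2 (0.01, 3.17 and 0 FPKM) reached 1 FPKM in replicate 2 alone. So did Ccr3 (0, 5.38 and 0.17 FPKM) of the eosinophil list, which summed to 0.21, 5.38 and 0.2 FPKM. Kit reached it in replicate 3 alone.

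**Figure D5:**
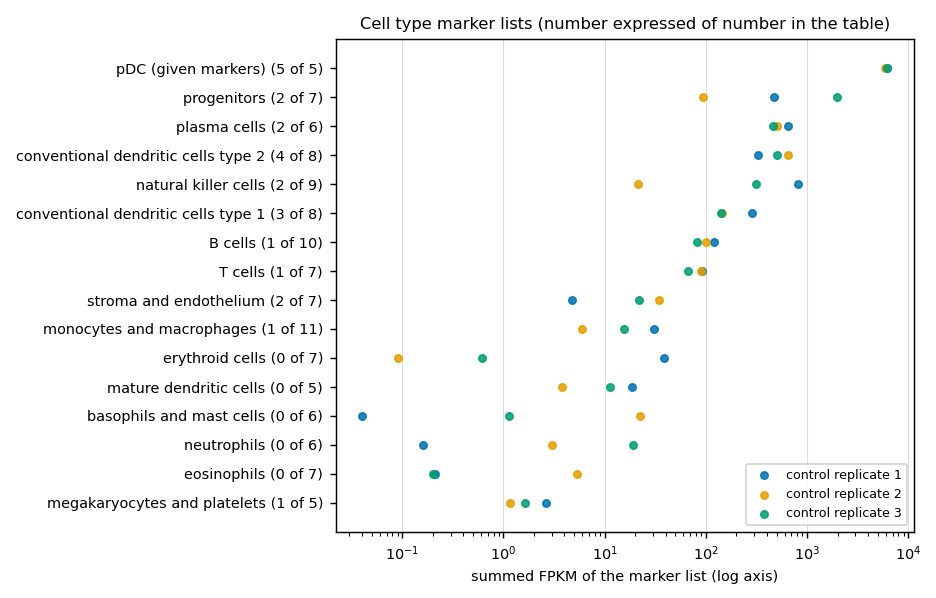
Summed FPKM on a log axis of each marker list, 1 dot per control library, with the number of markers expressed in all 3 libraries. The 5 pDC markers lie between 5880.4 and 6218 FPKM in all libraries, above every other list, and the natural killer, progenitor and erythroid lists spread widest among those with a library above 30 FPKM.

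The spread of single genes was set out for the 1802 known genes of mean 50 FPKM or more that were expressed in all 3 libraries. A further 13 known genes of that mean missed the minimum in at least 1 library and are not in these counts, among them Nkg7, Wfdc17, Cd209d and Ifitm6, whose coefficients of variation were 128%, 114%, 93.5% and 173%. The median coefficient of variation of the 1802 genes was 33.8%, and 947 of them had a highest value less than 2-fold above the lowest. In 31 genes the range was 10-fold or more, and replicate 1 was the highest library in 21 of these, against 862 of the 1802. With loci of predicted names left out, the steadiest after Myl6 were Tmem230 (59.5, 58 and 58.6 FPKM) and Cisd1 (100.4, 102 and 97.9 FPKM). Next came Nedd8 (774, 802 and 803 FPKM) and Alox5ap (591, 608 and 621 FPKM), which encodes the activating protein of leukotriene synthesis. Rps4x, Atpif1, Ndufb8, Nipsnap3b and Rhoa completed the 10 steadiest. Of the 10 most variable of the genes kept, Ccl5 was highest in replicate 3 and the other 9 in replicate 1. These were Eif4ebp1 (842, 28.3 and 88.4 FPKM), an inhibitor of translation initiation whose record is 3.56 times its RefSeq length, Vmn1r126 and Cyp2j13, also with extended records, Xkrx, Insl6, Akip1, Zfp488, Cpq and Cd63.

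Some genes were well above the minimum in 2 libraries and listed at 0 in the remaining one. Of 5272 known genes of mean 10 FPKM or more, 150 were listed at 0 in at least 1 library, 100 of them in replicate 1, 38 in replicate 2 and 22 in replicate 3, some in more than 1. They include Snrpd3 (0, 68.6 and 125 FPKM), a core protein of the spliceosome that every cell uses, so a listed 0 is not read as absence. Among genes at 0 in 1 library, predicted names left out, Cd209d was the highest by mean. After it came Wfdc17 (0, 414 and 141 FPKM), Eef1akmt1 (0, 209 and 119 FPKM) and Tmem254b (115, 0 and 103 FPKM). Further down came Tsacc, Hist1h2ad, Clec10a, Cib2, Wdr53, Rab8a, Nrp, Sap25, Rsrc1 and Cd79a.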

How the data were processed

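RNA-seq of bone marrow pDCs gave 1 table of genes, and its 3 control columns were used. The values are FPKM rounded to 2 decimals, deposited by the authors in 1 column for each library. Tools in the submitters' processing notes are RSEM 1.2.8, Bowtie2 2.2.5, HISAT, GATK and StringTie, with the build mm10 and no order or role. Of 21574 lines 1 was broken and left out. Of 17590 known genes 17546 had their number in RefSeq, and 24 symbols turned into dates were restored from it. The length of the longest transcript is per the file headers.

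No counts were used. From the steps between low FPKM values of short genes the depth was about 23100000 and 24600000 fragments in control replicates 1 and 2, with 82.4% of 347 and 84.8% of 92 values within 0.1 of a whole fragment. For replicate 3 only 55% of 40 values were, and its depth is unknown. The search settings were widened after a first attempt gave no value for replicates 2 and 3. No counting intervals were computed.

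A gene was expressed at a minimum of 1 FPKM in all 3 libraries. With no contrast there is no test and no p-value. Lists (32 pathways, 9 families, 16 marker lists) are given by counts, medians and sums, and 47 listed genes were not found in the table. Counts of expressed members are to be read beside the 35.4% of known genes that were expressed, also where that share is not repeated. An older symbol was matched only where RefSeq gives it to no other gene. The members and lists were chosen with earlier results of these data known. Kinases and other non-members caught by a family's name were removed after seeing the data. Named are the 5 markers, the 40 highest known genes, the 6 highest of each list or all of short and marker lists, all interferon, cytokine, chemokine, Toll-like receptor, interferon regulatory factor and co-stimulation genes, the 10 steadiest and 10 most variable genes, and 15 listed at 0 in 1 library, apart from some genes that are not reported here. Other list members are named for their known roles, after their values were seen. Ranking and counting were tested on simulated data. Alternatives were another minimum or mean, TPM, median-of-ratios scaling, medians, geometric means with a pseudocount of 1 or 0.1, known genes only, leaving out each library and, added after seeing the data, leaving out long records. Promoters are RefSeq's, GRCm38.p6. Python 3.11.15, pandas 2.3.3, numpy 2.4.6 and matplotlib 3.10.9 were used.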

Additional observations from a re-analysis of the deposited data

How the results depend on the processing

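The count of 6807 expressed genes lay between 4823 and 8750 under every alternative except a mean of at least 1 FPKM in place of 1 FPKM in each library, which gave 11324. Without control replicate 1, 2 or 3 it was 8750, 7395 and 7049. The 50 highest genes shared 44 to 50 with the main ranking under all alternatives, and pDC identity genes expressed numbered 48 to 61. For lists, 472 counts stayed within 1.5 times the main count and 22 did not. The settings of medians, geometric means and known genes only could not change a list count, since the minimum and the members stayed the same. The mean of at least 1 FPKM accounts for 11 of those 22, among them cell cycle (26 genes), apoptosis (29), glycolysis (20) and TRIM proteins (35). A minimum of 5 FPKM gave 12 apoptosis, 5 NF-kB and 12 TRIM genes. Interferons counted 1 gene, Ifnb1, after rescaling to TPM, at a minimum of 0.5 FPKM, at a mean of at least 1 FPKM and without replicate 3. Without records longer than in RefSeq, 3 Ly6 genes and 2 olfactory receptors counted. Summed marker levels have no value under alternatives of the minimum. No paired analysis was possible because no test between groups was made. Depth limits what is said of low values: by the estimates, 1 FPKM stood for 23 and 25 fragments of a transcript of 1000 bases in replicates 1 and 2, and the depth of replicate 3 is unknown.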

Other observations

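Several families outside the lineage programme were also read. Among calcium-binding and galectin genes 12 of 14 were expressed, with a sum that hardly differed between libraries (9379, 9944 and 10006 FPKM). S100a11 was at 1013, 1605 and 1324 FPKM, S100a6 at 927, 1047 and 996 FPKM, S100a10 at 742, 856 and 678 FPKM, S100a4 at 749, 447 and 911 FPKM and Lgals3, which encodes galectin-3, at 1592, 758 and 725 FPKM. The neutrophil genes S100a8 and S100a9 were at 0, 0 and 7.47 FPKM and at 0, 0 and 9.62 FPKM, in that order. Of 61 TRIM genes, many of them ubiquitin ligases of antiviral defence, 23 were expressed (37.7%), a share near the 35.4% of known genes. Trim30d and Trim30a, neighbours on chromosome 7, were at 246, 107 and 70.7 FPKM and at 82.4, 112 and 133 FPKM, in that order, and Trim25, which activates RIG-I, at 65.3, 35.3 and 45.1 FPKM. Trim12c was at 2.03, 62.2 and 24.9 FPKM, Trim28 at 13.1, 23.9 and 45.7 FPKM and Trim12a at 4.71, 28 and 49 FPKM.

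Families that serve other tissues were nearly silent. Of 39 keratins 1 was expressed, Krt10 (12.6, 13.5 and 11.1 FPKM), and of 8 crystallins 0, or 1 without replicate 1. Of 595 olfactory receptor genes 5 were expressed (0.84%, against 35.4% of known genes). Olfr1318 was at 349, 70.3 and 47.8 FPKM, but its record is 92 times its RefSeq length and covers 6 annotated genes. Olfr835 (98.4, 15.1 and 15.8 FPKM) and Olfr167 (22.8, 8.18 and 8.76 FPKM) also have extended records. Olfr1033 (85.4, 136 and 97.9 FPKM) and Olfr164 (4.19, 7.06 and 19.4 FPKM) do not, since their records are 1.09 and 1 times the RefSeq length. Whether the reads of these records come from the receptors was not tested.

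Ifitm6, the highest known gene listed at 0 in 2 libraries with predicted names left out, was at 168, 0 and 0 FPKM. Vwf, of endothelium and platelets and chosen after its values were seen, was at 40.8, 0 and 0 FPKM.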
